A study of Mus musculus with 39 samples.

Results

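The longest Nucleosome Wrapping Domains (NRDs) of R1 cells, a wild-type line of mouse embryonic stem (ES) cells, are runs of 3 Mb or more. In them a relative index of nucleosome wrapping, made from fragment lengths, lies mostly above or mostly below its genome mean. Tight and loose are thus relative terms, and the paper states that factors other than wrapping may contribute to the index. Their members were selected on the deposited NRD list as every domain of an autosome with a length of at least 3 Mb, and their kind was set by the sign of the wrapping index, positive for tight domains (TiNRDs) and negative for loose domains (LoNRDs). There were 240 such domains among the 1243 NRDs of the list and the 1086 NRDs of the autosomes. The number of NRDs in the deposited list differs from that in the study's text, and the list was used as deposited. Of the members, 131 were TiNRDs and 109 were LoNRDs. Length and sign thus chose the members, and both are given below as a description without a test.

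In H3-wrapping-seq, crosslinked chromatin was digested with micrococcal nuclease and immunoprecipitated with an antibody against histone H3, and the lengths of the recovered fragments were compared in bins of 100 kb. H3-wrapping-seq comprised 2 experiments with 2 libraries each. The sources used here do not state whether the domain list was called on pooled libraries. Replication timing (RT) was profiled in the same wild-type cells from BrdU-labelled DNA of 4 fractions of S phase, S1 to S4, in 2 experiments, and each RT domain carries the log2 ratio of the early fractions (S1 and S2) to the late fractions (S3 and S4). Each list holds 1 value per domain and no replicate values or read numbers, so read depth is not known for any domain, and no difference below was tested. Tracks of RT per replicate were deposited as well and are not analysed here, so replicates are not compared. The spread is given over domains and over the 19 autosomes.

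DNA is wrapped around histone octamers, and the ends of the wrapped DNA can detach from the octamer. In mammalian nuclei, gene-rich chromatin of the A compartment is in general copied early in S phase, and gene-poor chromatin of the B compartment, much of it at the nuclear lamina, is copied late. In ES cells the timing programme is known to change in many regions when the cells differentiate.

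Long NRDs made up 22.1% of the autosomal NRDs by number and 62.6% by length, 1489 of 2378 Mb. Long TiNRDs covered 807 Mb and had a median length of 5 Mb, with quartiles of 3.8 and 6.95 Mb. Long LoNRDs covered 682 Mb and had a median length of 5.3 Mb, with quartiles of 4.2 and 7.3 Mb. The bulk of both kinds was therefore of similar length, and they differed at the upper end. At least 10 Mb were reached by 16 TiNRDs and 15 LoNRDs, at least 15 Mb by 5 TiNRDs and 2 LoNRDs, and more than 20 Mb by 3 TiNRDs and no LoNRD. The wrapping index, a z-score without a unit, had a median of 0.822 in long TiNRDs (range 0.272 to 1.49) and of −0.89 in long LoNRDs (range −1.20 to −0.44). Over all autosomal NRDs the medians were 0.447 and −0.447. Among long TiNRDs the index was higher in longer domains (Spearman's rho 0.488 across 131 domains), and among long LoNRDs it was lower in longer domains (rho −0.341 across 109 domains). Domains of 1 kind share libraries, normalization and smoothing, so these values describe the list only.

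At the length limit the list holds many ties. Exactly 3 Mb were measured for 6 TiNRDs and 6 LoNRDs, and 2.9 Mb for 6 TiNRDs and 3 LoNRDs. In the order of the chromosomes, the first TiNRDs just inside the limit lay on chromosome 3 from base 151900001 to base 154900000 (index 0.665, 56.1% of the RT-called length early) and on chromosome 6 from base 81700001 to base 84700000 (index 0.828, 76.7% early). The first just outside lay on chromosome 1 from base 169800001 to base 172700000 (index 0.656, 84.8% early) and on chromosome 6 from base 90100001 to base 93000000 (index 1.01, 89.7% early). The first LoNRDs just inside lay on chromosome 2 from base 6600001 to base 9600000 (index −0.769, 100% late) and from base 114000001 to base 117000000 (index −0.622, 70.9% late). Just outside were those on chromosome 1 from base 172700001 to base 175600000 (index −0.545, 84.5% late) and on chromosome 2 from base 21300001 to base 24200000 (index −0.447, 82.8% late). Values on the 2 sides of the limit overlapped for both kinds.

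Long NRDs were not spread evenly over the chromosomes. Loose domains made up most of the long class on some autosomes and tight domains on others. Long NRDs made up between 43.0% of chromosome 19 and 71.3% of chromosome 6. The TiNRD share of the long domains ranged from 19.4% of their length on chromosome 3 to 79.5% on chromosome 11. Chromosome 3 had 4 long TiNRDs and 12 long LoNRDs, and chromosome 11 had 10 long TiNRDs and 3 long LoNRDs. Mouse autosomes carry the centromere near their first base, and the kinds differed in their place along the arm. With each chromosome divided into 3 equal parts, 55 of the 131 long TiNRDs had their midpoint in the distal part, 40 in the middle part and 36 in the proximal part. Of the 109 long LoNRDs, 25 lay in the distal part, 39 in the middle part and 45 in the proximal part. Of all autosomal TiNRDs and LoNRDs, 29.2% and 28.6% lay in the distal part.

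The neighbours of long domains had the lengths of the list as a whole. Of the 262 sides of long TiNRDs, 56 adjoined another long NRD and 122 an NRD shorter than 1 Mb, and of the 218 sides of long LoNRDs these were 50 and 94. Long NRDs were 22.1% of all autosomal NRDs and those under 1 Mb were 44.6%, near the shares of these sides. The next domain was of the opposite kind at 199 sides of TiNRDs and 186 sides of LoNRDs, and it directly touched the long domain at 195 and 184 of them. At 54 sides of TiNRDs and 27 sides of LoNRDs the next domain had the same sign. Of the 240 long domains, 144 had no long domain next to them in the list, and 96 stood in 43 runs of long domains. There were 34 runs of 2, 8 runs of 3 and a single run of 4, in which long LoNRDs and TiNRDs alternated over 19.4 Mb of chromosome 2 from base 85200001 to base 104600000. Long domains of 1 kind also followed each other across a short break. With breaks under 1.5 Mb there were 20 such pairs of TiNRDs and 16 of LoNRDs, of which 7 and 4 had no NRD between them and are also among the runs. The pair with the largest span was made of 2 TiNRDs of 22.1 and 17.1 Mb on chromosome 5, which with their break of 1.4 Mb reached from base 110000001 to base 150600000. The break between them, with 3 short NRDs, had 0% of its RT-called length early. Among LoNRDs the largest span, 20.4 Mb on chromosome 6 from base 7800001 to base 28200000, held domains of 9.9 and 10.3 Mb with a break of 200 kb. In 9 of the 20 TiNRD breaks all RT-called bases were late, and in 8 all were early. In the 16 LoNRD breaks the counts were 6 early throughout and 5 late throughout.

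Long tight domains were copied mostly early and long loose domains almost entirely late. The late share of the loose kind was above the early share of the tight kind on 18 of 19 autosomes, with chromosome 11 the exception. To obtain these shares, the RT domain list was laid over the long domains. RT calls covered 96.4% of the length of long TiNRDs and 96.5% of that of long LoNRDs. In long TiNRDs 614 Mb were early and 164 Mb late, so that 78.9% of the called length was early. In long LoNRDs 55.4 Mb were early and 602 Mb late, so that 91.6% was late. Over all autosomal NRDs the corresponding shares were 76.2% and 88.1%. The early share was higher in long TiNRDs than in long LoNRDs on 19 of 19 autosomes, by between 57.7 percentage points on chromosome 18 and 86.3 on chromosome 4. Long TiNRDs were early over 65.2% of their length on chromosome 14, the lowest share, and over 89.8% on chromosome 4, the highest. Long LoNRDs were late over 83.0% of their length on chromosome 11 and over 97% on chromosome 14. Chromosome 14 thus had both the latest long TiNRDs and the latest long LoNRDs.

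Domain by domain, the correspondence was closer for LoNRDs. Of the 109 long LoNRDs, 95 (87.2%) were late over at least 80% of their called length, against 71.3% of all autosomal LoNRDs with an RT call. Of the 131 long TiNRDs, 61 (46.6%) were early over at least 80% of their called length, against 51.4% of all autosomal TiNRDs with a call. The count for TiNRDs was thus below that over all of them, although the limit of 50% was reached by 123 of 131 long TiNRDs (93.9%) and by 76.7% of all. Shorter domains more often had a single RT call, which goes with length by construction, since a longer domain can cross more RT borders. All called bases were early in 12 long TiNRDs (9.16%) and in 26.5% of TiNRDs under 3 Mb, and all were late in 23 long LoNRDs (21.1%) and in 44.2% of LoNRDs under 3 Mb. Between domains the early share of long TiNRDs had quartiles of 67.6 and 91.8%, and the late share of long LoNRDs had quartiles of 85.8 and 98.7%. No long LoNRD was late over less than 64.6% of its called length, while 8 long TiNRDs were early over less than 50%.

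Within the long class, these shares differed little with length. TiNRDs of 3 to 5 Mb were early over 76.6% of their called length, those of 5 to 10 Mb over 78.8%, and those of 10 Mb and over, 81.4%. LoNRDs of the same classes were late over 91.2%, 91.0% and 93.0%. In the classes below the limit the shares were lower. TiNRDs under 1 Mb were early over 65.8% and those of 1 to 3 Mb over 73.9%, and LoNRDs of these classes were late over 69.7% and 87.6%. Across the long domains of each kind, length and the corresponding RT share had a rho of 0.0788 in TiNRDs and 0.0244 in LoNRDs.

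The size of the RT value depended on how it was averaged. Weighted by called bases, it averaged 0.75 on the log2 scale in long TiNRDs and −0.71 in long LoNRDs, against 0.63 and −0.64 over all autosomal TiNRDs and LoNRDs. With each RT domain inside counted once, it was 0.30 and −0.41. The kinds differed in how far their members spread. The value of single long TiNRDs ranged from −0.39 to 1.65 (median 0.65, quartiles 0.41 and 1.00, SD 0.44 over 131 domains), and that of single long LoNRDs from −1.05 to −0.22 (median −0.73, quartiles −0.82 and −0.57, SD 0.18 over 109 domains). It was positive in 125 of 131 long TiNRDs and negative in 109 of 109 long LoNRDs, against 74.0% of all autosomal TiNRDs and 82.2% of all autosomal LoNRDs with a call. In both kinds it was higher in members with a higher wrapping index (rho 0.484 in TiNRDs, 0.596 in LoNRDs) and in members with more genes per Mb (rho 0.739 and 0.610), and lower in members with more A/T (rho −0.638 and −0.355). These measures share the same bases, and gene density (rho 0.576 in TiNRDs and 0.618 in LoNRDs) and A/T content also go with the index itself.

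Most long domains of either kind had whole RT domains inside, and the 2 kinds were not alike in how many of these had the other sign. Long TiNRDs enclosed many short late domains, while the early domains enclosed by long LoNRDs were fewer and shorter. An RT domain was counted as inside when all its bases lay in the long NRD. By this count 372 RT domains lay inside long TiNRDs, 220 early and 152 late, so that 40.9% of them were late. Inside long LoNRDs there were 258, of which 184 were late and 74 early, so that 28.7% were early. Of all 1617 autosomal RT domains, 52.5% were late and 47.5% early. Long TiNRDs thus held 28.6% of the early and 17.9% of the late autosomal RT domains, and long LoNRDs held 9.64% of the early and 21.7% of the late. The number of RT domains of the other sign was larger than their share of the length, since they were short. Early RT domains inside long TiNRDs had a median length of 1250 kb and late ones of 600 kb. Late RT domains inside long LoNRDs had a median length of 1550 kb and early ones of 450 kb. The medians over all autosomal RT domains were 900 kb for early and 1050 kb for late. The longest RT domains inside were an early one of 11 Mb in a TiNRD and a late one of 8.2 Mb in a LoNRD.

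The median long NRD of either kind had 2 RT domains inside. None lay inside 23 long TiNRDs and 21 long LoNRDs, because their RT domains reached across the borders. Of these, 5 TiNRDs and 7 LoNRDs lay whole in a single RT domain. The largest number of RT domains inside a TiNRD was 11, reached on chromosome 7 and chromosome 12, each time with 5 early and 6 late ones. In LoNRDs the largest number was 8, reached by 5 domains on chromosomes 1, 6, 10, 12 and 13. No late RT domain lay inside 48 long TiNRDs, and no early RT domain inside 52 long LoNRDs. Per 10 Mb of domain there were 4.61 RT domains inside long TiNRDs and 3.78 inside long LoNRDs, against 4.22 and 3.21 over all autosomal TiNRDs and LoNRDs. Nothing is read from this difference, because short NRDs can hold few whole RT domains (1.75 and 1.21 per 10 Mb in those under 1 Mb).

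RT domains of the other sign that lay whole inside a long NRD can be described as islands. They were short and had weaker RT values than domains of the same call in hosts of the matching kind. There were 152 late islands with 108 Mb in 83 of the 131 long TiNRDs, and 74 early islands with 39 Mb in 57 of the 109 long LoNRDs. They made up 65.8% of the late length of long TiNRDs and 70.3% of the early length of long LoNRDs. The remaining 56.2 and 16.4 Mb belonged to RT domains that crossed a border. The median distance to the nearest border was 1375 kb for late islands and 1775 kb for early islands, while RT domains of the matching sign inside had medians of 575 and 600 kb. Nothing is read from this difference, because RT domains of either sign that cross a border are left out and the matching ones are longer. At least 1 Mb lay between island and border for 102 late and 52 early islands. Late islands were of moderate RT value, with a median of −0.48 (quartiles −0.71 and −0.31), where late RT domains inside long LoNRDs had −0.78. Early islands had a median of 0.36 (quartiles 0.28 and 0.53), where early RT domains inside long TiNRDs had 0.83. A length of at least 1 Mb was measured for 29 late islands and 2 early islands.

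The islands differed from their hosts in genes and base composition. The 74 early islands held 264 protein-coding genes, 6.77 per Mb, and gene density was above that of the host in 51 of them and below it in 23. The A/T content was below that of the host in 57 of the 74. The 152 late islands held 502 protein-coding genes, 4.64 per Mb, with a density below that of the host in 135 and an A/T content above it in 112. No protein-coding gene started in 12 early and 32 late islands. Taking all called bases, and not only whole islands, the early parts of long LoNRDs held 7.52 genes per Mb and the late parts 2.35, while the early parts of long TiNRDs held 17.2 and the late parts 5.16. A/T content stayed apart between the kinds within each call. In early parts it was 53.8% for long TiNRDs and 60.3% for long LoNRDs, and in late parts 56.5% and 62.1%.

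The longest late island, 3.35 Mb on chromosome 13 from base 69800001 to base 73150000, had an RT value of −0.97 and held 5 protein-coding genes, from Med10, a subunit of the Mediator complex, to Irx2, a homeobox transcription factor. Its longest gene was Adamts16, which encodes a secreted metalloprotease. An island of 2 Mb on chromosome 8 (bases 114450001 to 116450000, RT value −0.83) held only Maf, a bZIP transcription factor. Another of 2 Mb on chromosome 15 (bases 86450001 to 88450000, RT value −0.81) held only Fam19a5, a gene for a small secreted protein of the brain. The longest early island was 1.15 Mb long, on chromosome 9 from base 3250001 to base 4400000, with an RT value of 0.32 and 6 genes from Alkbh8, a tRNA-modifying enzyme, to Msantd4. On chromosome 17 an island of 1 Mb (bases 16900001 to 17900000, RT value 0.75) held 11 genes, among them the zinc finger genes Zfp960 and Zfp97 and the vomeronasal receptor gene Vmn2r90. Next came 0.9 Mb on chromosome 2 from base 65200001 to base 66100000 (RT value 0.38), equal in length to 2 others on chromosomes 3 and 17. It held 5 genes from Cobll1 to Csrnp3.

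Among 18 regulators of pluripotency, 9 had their start in a long TiNRD, against 55.8% of all 20807 autosomal protein-coding genes, and 2 in a long LoNRD, against 9.27% of all. The 9 genes, all in early RT domains, were Nr5a2, Sall4, Lin28a, Tbx3, Utf1, Klf2, Tdgf1, Esrrb and Pou5f1. Pou5f1 (Oct4), a transcription factor needed for the ES cell state, lay in the TiNRD of chromosome 17 from base 33400001 to base 36400000, which has the limiting length of 3 Mb, in an RT domain of 1.65. All 18 regulators lay in early RT domains, as did 78.1% of all autosomal protein-coding genes with an RT call, 92.6% of those in long TiNRDs and 22.7% of those in long LoNRDs. Both genes in long LoNRDs lay in early islands. Zfp42 (Rex1), a zinc finger protein widely used as a marker of naive ES cells, lay in an island of 650 kb on chromosome 8 (bases 42950001 to 43600000, RT value 0.80), 1200 kb from the nearest border. Dppa4, a chromatin protein of pluripotent cells, lay in an island of 750 kb on chromosome 16 (bases 48100001 to 48850000, RT value 0.69), 1050 kb from the nearest border. The other 7 genes, with Nanog and Sox2 among them, were in no long NRD, and their RT values were positive.

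Toward the borders the RT calls of long domains became mixed. The borders of long LoNRDs lay closer to RT borders than those of long TiNRDs, and early shares near the borders depended on the width of the window. In the last 200 kb inside, 51.1% of the called bases were early in TiNRDs and 26.9% in LoNRDs. Within 500 kb outside long TiNRDs 31.0% of the called bases were early, within 500 kb inside 63.4%, and in the central 500 kb 84.2%. For long LoNRDs the late share was 36.0% outside, 83.9% inside and 92.3% at the centre. The late share of LoNRDs was thus near its central value within a shorter distance. In steps of 250 kb from the border inward, long TiNRDs were early over 54.0%, 72.7%, 78.7% and 81.3% of the called length, and long LoNRDs were late over 75.8%, 91.8%, 94.9% and 92.9%. The early share was higher inside than outside at 135 of 261 TiNRD borders with calls on both sides, lower at 17 and equal at 109. The late share was higher inside at 155 of 218 LoNRD borders, lower at 4 and equal at 59. In windows of 200 kb the counts of higher shares inside were smaller, 75 of 255 and 96 of 213. In windows of 1000 kb they were larger, 176 of 262 and 174 of 218. The nearest RT border where the call switched in the same direction lay at a median distance of 300 kb from the borders of long TiNRDs (quartiles 150 and 750 kb, 262 borders) and of 150 kb from those of long LoNRDs (quartiles 100 and 350 kb, 218 borders). It was more than 1 Mb away at 40 TiNRD borders (15.3%) and 14 LoNRD borders (6.42%). A/T content went by steps as well, from 59.4% in the last 250 kb outside long TiNRDs to 57.1%, 55.6%, 55.2% and 55.0% inward, and from 57.7% to 59.8%, 60.9%, 61.5% and 61.9% for long LoNRDs. The smoothing of the index along the chromosome limits how exactly a border is placed.

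In A/T content the long domains of the 2 kinds did not overlap. Loose domains were richer in A/T and in repeats and poorer in CpG. Long TiNRDs had a median A/T content of 55.0% (range 50.5 to 59.8%) and long LoNRDs of 61.8% (range 59.9 to 63.4%), so that the highest TiNRD lay below the lowest LoNRD. Over all autosomal NRDs the medians were 56.7% and 60.3%, and the ranges overlapped. The pooled A/T content was higher in LoNRDs on 19 of 19 autosomes. Within each kind a higher wrapping index went with less A/T (rho −0.887 in long TiNRDs and −0.786 in long LoNRDs). The index is made from fragment lengths after digestion with a nuclease that prefers A/T-rich DNA, and the part of this preference was not tested here. In their own study the authors compared cutting sites between the kinds and found only weak correlations of A/T content with fragment length. In bins far smaller than these domains they found a negative correlation of A/T content with the index, and proposed that A/T content may contribute mildly. Values over whole long domains cannot be set directly against that one. CpG dinucleotides numbered 11.3 per kb in long TiNRDs (range over domains 6.06 to 14.7) and 5.61 per kb in long LoNRDs (range 4.44 to 7.21), which was 0.219 and 0.155 of the number expected from the C and G content. Repeat-masked sequence made up 28.4% of long TiNRDs and 39.8% of long LoNRDs.

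Tight long domains were rich in genes and loose ones poor, apart from clusters of receptor genes. Very long genes formed the other exception. Long TiNRDs held 11603 protein-coding genes, 14.4 per Mb, and long LoNRDs held 1928, 2.83 per Mb. The numbers for all autosomal TiNRDs and LoNRDs were 13.0 and 3.77 per Mb. The density was higher in TiNRDs on 19 of 19 autosomes, with a range of 8.17 to 21.2 per Mb in long TiNRDs and of 0.609 to 9.5 in long LoNRDs. Single long LoNRDs had a median of 1.94 genes per Mb and long TiNRDs of 12.1. Very long genes were more frequent in long LoNRDs, which held 83 of the 218 autosomal protein-coding genes of at least 500 kb (38.1%), while long TiNRDs held 50 (22.9%). Of the genes in long LoNRDs, 26.5% were olfactory or vomeronasal receptors, against 6.79% of all autosomal protein-coding genes and 1.68% of those in long TiNRDs.

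Gene families were placed mostly by whole clusters, so that their members are not independent. Of all autosomal protein-coding genes, 55.8% were in long TiNRDs and 9.27% in long LoNRDs. All 39 Hox genes, which pattern the body axis, had their start in a long TiNRD. The HoxA cluster lay in the TiNRD of chromosome 6 from base 47500001 to base 55700000 (11 genes, RT value 0.92), HoxB on chromosome 11 from base 93500001 to base 104700000 (10 genes, 1.76), HoxC on chromosome 15 from base 92800001 to base 103600000 (9 genes, 1.53) and HoxD on chromosome 2 from base 74500001 to base 77900000 (9 genes, 0.76). The host of HoxD had the lowest wrapping index of the long TiNRDs, 0.272. All 49 keratin genes, for the filaments of epithelia and hair, were in long TiNRDs as well, 25 in the host of HoxB and 24 in the host of HoxC, and 5 of them lay in a late island of chromosome 11. Of 67 protocadherin genes, which encode adhesion proteins of neurons, 60 were in long TiNRDs, 59 of them in a single domain of chromosome 18, where 24 lay in a late island of 500 kb (Pcdha11 is annotated as 2 genes and counted as such). The other 7 were in long LoNRDs and late RT domains. Of all 11603 genes of long TiNRDs, 502 lay in late islands. Of the 1834 genes of long LoNRDs with an RT call, 1417 were late.

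The early parts of long TiNRDs held 50.7% of all autosomal protein-coding genes. They held 50 of 76 cytosolic ribosomal protein genes (65.8%), 24 of 38 proteasome genes (63.2%) and 22 of 44 genes of respiratory complex I (50%), so that ribosomal protein and proteasome genes were above the share of all genes and complex I genes near it. The complex I list, taken by symbol, also holds assembly factors such as Ndufaf5. Of 27 genes for licensing of origins and for the replication fork, 13 (48.1%, near the 50.7% of all genes) were in the early parts of long TiNRDs, and 1 in a long LoNRD. That gene was Orc4, a subunit of the origin recognition complex, in a late RT domain of −0.94 on chromosome 2. Zinc finger genes named Zfp numbered 224 of 358 in long TiNRDs (62.6%, against 55.8% of all genes) and 12 in long LoNRDs (3.35%, against 9.27%). Of 67 replication-dependent histone genes, 13 (19.4%, against 55.8%) were in long TiNRDs, 0 in long LoNRDs and 54 in shorter NRDs or in none.

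Receptor families of sensory neurons and of synapses had larger shares in long LoNRDs than all autosomal protein-coding genes (9.27%), though many sensory receptor genes were in no long NRD. Of all autosomal protein-coding genes with an RT call, 22.7% of those in long LoNRDs and 92.6% of those in long TiNRDs were early. Of 1087 autosomal olfactory receptor genes, 424 (39.0%) were in long LoNRDs, 167 (15.4%) in long TiNRDs and 496 (45.6%) in no long NRD. Of those in long LoNRDs 354 were in late RT domains and 62 in early ones. Of those in long TiNRDs 120 were in early ones and 35 in late ones. The LoNRD of chromosome 2 from base 85200001 to base 90200000 alone held 213, and that of chromosome 19 from base 12000001 to base 15700000 held 59. Type 1 vomeronasal receptor genes were in long LoNRDs in 42 of 207 cases (20.3%) and type 2 genes in 45 of 119 (37.8%). In no long NRD were 158 type 1 genes (76.3%) and 53 type 2 genes (44.5%). Of 42 genes for glutamate and GABA receptors, a list by symbol that also holds the receptor-associated gene Grina, 19 (45.2%) were in long LoNRDs, 16 of them late, and 15 in long TiNRDs, 12 of them early. Cadherin genes named Cdh and a number, classical and other ones together, were divided evenly, with 11 of 23 in each kind, and the 11 in long LoNRDs were all late. Of 91 potassium channel genes 55 (60.4%) were in long TiNRDs and 9 (9.89%) in long LoNRDs, near the shares of all autosomal genes, 55.8% and 9.27%. That list, taken by symbol, also holds genes for proteins that interact with channels, such as Kcnip1.

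The longest tight domains were gene-rich and early over most of their length, with late RT domains between. The 4 longest TiNRDs lay on chromosomes 5, 4, 7 and 15. That of chromosome 5 (22.1 Mb, bases 110000001 to 132100000) had a wrapping index of 1.16, an RT value of 1.09, and 4 early and 3 late RT domains inside. Genes of the lists in it included Pole, the catalytic subunit of DNA polymerase epsilon, Rfc5, of the clamp loader, Tbx3, and the ribosomal protein genes Rplp0 and Rpl6. That of chromosome 4 (20.8 Mb, bases 122800001 to 143600000) had an index of 1.29 and an RT value of 1.42, and 91.1% of its called length was early. It held 351 protein-coding genes, with Lin28a, an RNA-binding protein, Psmb2, a proteasome subunit, and Grik3, a kainate receptor, among them. That of chromosome 7 (20.7 Mb, bases 124700001 to 145400000) was early over 71.1% of its called length and had an RT value of 0.60. It held 343 genes, including 19 olfactory receptor genes, 12 Zfp genes, the potassium channel gene Kcnq1 and Utf1. That of chromosome 15 (17.4 Mb, bases 72400001 to 89800000) had an index of 1.32, was early over 85.6% and held 340 genes, including 10 cytochrome P450 genes of the list. These 4 domains were alike in A/T content, between 51.8 and 53.6%, and unlike in timing.

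The 4 longest LoNRDs lay on chromosomes 16, 12, 1 and 13 and were much alike. That of chromosome 16 (16.6 Mb, bases 59600001 to 76200000) had an index of −1.09, was late over 94.4% of its called length, and held 25 protein-coding genes. Its longest was Cadm2, a cell adhesion gene of neurons of 965 kb. That of chromosome 12 (15.4 Mb, bases 36300001 to 51700000) was late over 85.9% and held 28 genes, with Immp2l, a mitochondrial peptidase gene of 931 kb, as the longest. That of chromosome 1 (13.8 Mb, bases 137200001 to 151000000) was late over 89.5% and held 33 genes, among them Kcnt2, a sodium-activated potassium channel. That of chromosome 13 (12.6 Mb, bases 78300001 to 90900000) was late over 89.8% and held 16 genes from Arrdc3 to Xrcc4, a factor of DNA end joining, with Adgrv1, an adhesion receptor of hair cells, as the longest. The RT value of the 4 lay between −0.74 and −0.69, and their A/T content between 61.8 and 62.7%.

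Among long TiNRDs, the members whose timing went least with their kind were rich in repeats, and among long LoNRDs this varied. The smallest early share of a long TiNRD, 20%, was found on chromosome 18 from base 3600001 to base 7100000 (index 0.337, 13 genes). Next came a TiNRD of chromosome 14 from base 3700001 to base 8600000, with 21.1% early in spite of an index of 1.35, 98 annotated genes and 55.8% of repeat-masked sequence. On chromosome 7, from base 6000001 to base 9400000, 24.6% was early and 50.8% repeat-masked, and this TiNRD held 17 type 2 vomeronasal receptor genes, 8 olfactory receptor genes and 10 Zfp genes. Another, on chromosome 14 from base 40700001 to base 45200000, was 30.9% early and 41.1% repeat-masked. The median of long TiNRDs was 27.7% repeat-masked, so that these values were above it, and that of chromosome 18 was so too, with 37.6%. The part of reads from repeats in the index was not tested. Among long LoNRDs the largest early share, 35.4%, was that of chromosome 9 from base 3000001 to base 6700000, at the assembled start of the chromosome, with 51.3% repeat-masked and the glutamate receptor gene Gria4. It was followed by the host of Zfp42 on chromosome 8 from base 41100001 to base 44800000 (29.7% early, 38.7% repeat-masked), the LoNRD of chromosome 2 from base 114000001 to base 117000000 (29.1% early, 28.5% repeat-masked), with Zfp770, and that of chromosome 17 from base 15600001 to base 20900000 (26.5% early, 46.2% repeat-masked), which held 22 type 2 and 7 type 1 vomeronasal receptor genes.

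The extremes of gene density were far apart within each kind. The TiNRD with most genes per Mb was the host of Pou5f1 on chromosome 17, with 52 per Mb. It lay in 1 early RT domain over its whole called length and also held Cyp21a1, of steroid synthesis, the immunoproteasome genes Psmb8 and Psmb9, and Rps18 and Rps28. The TiNRD with fewest, 3.27 per Mb, lay on chromosome 12 from base 16300001 to base 26700000. It was 1 of the 2 with the most RT domains inside, was early over 41.6% of its called length, and had an index of 1.33, with 34 genes that included the potassium channel gene Kcnf1. Among LoNRDs the olfactory receptor domain of chromosome 2 had the most genes, 45.6 per Mb, and was late over 84% of its called length. The fewest were found on chromosome 12 from base 92000001 to base 98100000, where Flrt2, for a cell adhesion and guidance protein, was the only protein-coding gene that started within 6.1 Mb. This domain had an index of −1.14 and lay in late RT domains over its whole called length.

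Promoters differed between the kinds in the dinucleotide CG, the site of DNA methylation. Of the genes in long domains, 8820 of 11603 in TiNRDs and 1460 of 1928 in LoNRDs matched a promoter of RefSeq, which runs from 250 bases before to 50 bases after the gene start. The median promoter held 17 CG in long TiNRDs (quartiles 6 and 26), 3 in long LoNRDs (quartiles 1 and 17) and 15 over all 15704 matched autosomal genes. At least 10 CG were found in 67.6%, 36.0% and 60.2% of them. The letters TATAAA, on either strand, were found in 9.10% of promoters in long TiNRDs, 25.3% in long LoNRDs and 12.9% of all. To show such sequences, the promoters nearest the midpoints of the 2 longest domains of each kind are given as the 250 bases before the gene start (RefSeq, GRCm38.p6, 5′ to 3′ on the strand of the gene, CG in capitals). They begin with Rph3a, for rabphilin, a protein of synaptic vesicles (chr5:121010093-121010342, minus strand, outside annotated genes). Then comes Cd164l2 (chr4:133220559-133220808, plus strand, within the gene span and outside exons). Last is Cadm2 (chr16:67620909-67621158, minus strand, outside annotated genes), in the longest LoNRD. That of Dnajb9 on chromosome 12, chosen by the same rule, lies in an annotated untranslated region and is not shown. The printed parts hold 5, 6 and 10 CG, and the whole 300 bases hold 7, 8 and 15, with 35 for Dnajb9. These 4 promoters, chosen by position only, thus run against the difference of the medians, with more CG in the loose domains. Rph3a and Cd164l2 lay in RT domains of 1.57 and 1.76, and Cadm2 in one of −0.72.
Rph3a: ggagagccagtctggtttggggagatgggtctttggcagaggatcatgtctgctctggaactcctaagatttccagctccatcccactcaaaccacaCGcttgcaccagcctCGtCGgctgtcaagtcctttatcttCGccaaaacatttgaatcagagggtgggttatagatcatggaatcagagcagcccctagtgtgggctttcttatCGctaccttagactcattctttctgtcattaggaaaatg
Cd164l2: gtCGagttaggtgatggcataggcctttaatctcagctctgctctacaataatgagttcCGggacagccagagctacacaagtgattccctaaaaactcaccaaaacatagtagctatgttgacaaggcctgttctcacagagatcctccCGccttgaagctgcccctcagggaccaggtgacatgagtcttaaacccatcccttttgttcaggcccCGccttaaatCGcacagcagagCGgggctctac
Cadm2: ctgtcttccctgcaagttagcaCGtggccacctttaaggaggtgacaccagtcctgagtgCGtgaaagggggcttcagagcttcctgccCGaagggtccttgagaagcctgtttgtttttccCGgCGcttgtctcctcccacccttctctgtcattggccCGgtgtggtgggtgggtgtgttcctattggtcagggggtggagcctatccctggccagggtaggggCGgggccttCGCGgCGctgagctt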

How the data were processed

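For both lists the authors trimmed reads with cutadapt 4.3, aligned them to mm10 with Bowtie2 2.5.1, marked duplicates with Picard and dropped pairs of low mapping quality with SAMtools. The deposited score of each NRD derives from a z-score, over 100 kb bins, of longer against shorter fragments, smoothed along the chromosome. The deposited log2 value of each RT domain is the ratio of early to late S phase fractions in 50 kb windows after quantile normalization. The sources used here do not state how domain values were made from bins, nor whether replicates were pooled. Members and gene lists were chosen with earlier results of these data known.

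Overlaps were computed with Python 3.11.15, pandas 2.3.3, numpy 2.4.6 and scipy 1.17.1, tested on simulated lists, and checked against bedtools 2.31.1 (difference 0 Mb). Bases with an RT call were the denominator of RT shares. Sequence came from GRCm38, where the last RT domain ended at the chromosome length on 20 of 21 chromosomes, and genes from GENCODE for this assembly, placed by their start. Domains named were the 4 longest of each kind, those nearest 3 Mb, the 4 with the least matching timing, those with most RT domains inside and with most and fewest genes per Mb, and the 3 longest islands, with ties in the order of chromosomes. Genes named were members of 19 gene lists, otherwise the longest gene and those nearest the ends. The largest pairs and the longest run of neighbours, the host of HoxD as lowest in index, and the hosts of families were chosen after their values were seen.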

Additional observations from a re-analysis of the deposited data

How the results depend on the processing

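The domain lists hold no replicate values, so movements were read against the SD over autosomes, and counts against a factor of 1.5. Of 62 alternative values, 10 moved beyond these limits. A change of sign was possible only for the RT values, which kept theirs, since counts, shares and densities cannot turn negative. The early share of long TiNRDs lay between 77.9 and 79.6% and the late share of long LoNRDs between 91.2 and 91.8% with 1 autosome left out at a time, which is a range only, since pooled shares move little by construction. The shares also stayed within limits with the full length as denominator (76.0 and 88.4%), as means over domains, with limits of 2, 4 or 5 Mb and with neighbours merged. By construction, the number of members changed with the length limit, to 68 TiNRDs and 65 LoNRDs at 5 Mb and 167 LoNRDs at 2 Mb. Counting each RT domain inside once, in place of weighting by bases, gave RT values of 0.30 for long TiNRDs and −0.41 for long LoNRDs, since short islands then count like long RT domains and those across borders drop out. Within windows of 200 kb, early shares just inside the border were 51.1% for TiNRDs and 26.9% for LoNRDs, and the cause was not tested. Within windows of 1000 kb these shares were 71.7% and 11.1%. Outside repeats, the A/T content of long TiNRDs was 53.2%. All annotated genes, in place of protein-coding ones, numbered 30.5 per Mb in long TiNRDs and 10.8 in long LoNRDs. No paired analysis was made. The lists analysed hold no values per replicate, and the deposited RT tracks per replicate are not analysed here.

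With a single list per assay, neither counting error nor the spread between experiments is given for any domain. Borders lie on a 100 kb grid of a smoothed index, so that membership of a domain near 3 Mb rests on a single bin. RT domains that reach across a border are left out of the counts inside.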

Other observations

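The sex chromosomes, which were left out of the members, held 18 further NRDs of at least 3 Mb. On chromosome X there were 11 long LoNRDs with 97.3 Mb, late over 80.8% of their called length, and 1 long TiNRD of 3 Mb, early over 10.7%, with RT calls over only 46.7% of its length. On chromosome Y there were 2 long TiNRDs with 15.9 Mb, early over 1.67%, and 4 long LoNRDs with 19.1 Mb, late over 83.2%. The Y domains were between 90.8 and 99.6% repeat-masked and RT calls covered between 27.9 and 75% of single LoNRDs, which limits these shares.

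Of all autosomal protein-coding genes, 55.8% were in long TiNRDs and 9.27% in long LoNRDs. Of 94 cytochrome P450 genes, for the oxidation of steroids and foreign compounds, taken by symbols that end in a number so that genes such as Cyp3a41a are left out, 48 (51.1%) were in long TiNRDs and 0 in long LoNRDs. Cyp3a11, Cyp3a25, Cyp3a44 and Cyp3a59 lay together with Cyp3a41a and Cyp3a41b in a late island of 650 kb on chromosome 5 with an RT value of −0.77. Of the 11405 genes of long TiNRDs with an RT call 849 were late, and of the 1834 of long LoNRDs 1417 were late. Of 64 defensin genes, for antimicrobial peptides, 43 (67.2%) were in long TiNRDs, 27 of them in late RT domains, and 27 in a single TiNRD of chromosome 8 from base 21100001 to base 27500000. Of 60 autosomal serpin genes, for protease inhibitors, 28 (46.7%) were in long TiNRDs, where 21 were late, and 13 (21.7%) in long LoNRDs, all late. Most of them came from 2 clusters, 23 genes in the TiNRD of chromosome 12 from base 101700001 to base 113700000 and 11 in the LoNRD of chromosome 1 from base 106800001 to base 117900000. Of all 11603 protein-coding genes of long TiNRDs, 502 lay in late islands and 10556 were early. Late islands of long TiNRDs held 8 of the 55 potassium channel genes of these domains and 2 of the 15 genes for glutamate and GABA receptors, while 45 and 12 were early. The 8 include Kcna1, Kcna5 and Kcna6 on chromosome 6 (island of 950 kb, RT value −0.73). The 2 are the NMDA receptor genes Grin2a and Grin2b (RT values −0.42 and −0.43). In the opposite direction, the glutamate receptor gene Gria2 lay in an early island of 500 kb on chromosome 3 (RT value 0.42) inside a long LoNRD, and Ndufaf5, an assembly factor of complex I, in an early island of 650 kb on chromosome 2 (RT value 0.65). The potassium channel gene Kcnj3 also lay in an early island of a long LoNRD, of 450 kb on chromosome 2 (RT value 0.32).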
